A study of Mus musculus with 16 samples.

Results

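The interval chr13:21000001-22200000 of the mouse genome (build mm9), 1.2 Mb long, was selected by position, with earlier results of these data known. It was taken as a cluster of tRNA genes with the smaller group of histone genes of chromosome 13. Its members were all 50 bp windows that 9 ChIP-seq libraries listed there, 1928 of 1459926 listed windows genome-wide. Windows up to 200 bp apart were merged within each library, which gave 439 regions of 605681. Each region is described below by the signal of the highest window it holds, in the unit of the authors' lists.

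The libraries came from neural progenitor cells derived from V6.5 mouse embryonic stem cells, 1 cell line, through 4 days as embryoid bodies followed by monolayer culture in ITSF medium. Untreated cells gave 2 libraries with an antibody to Cbx3 (sets 1 and 2, same antibody clone) and 1 with an antibody to RNA polymerase II (Pol II). Cells transfected for 72 h with control siRNA against luciferase, or with siRNA against Cbx3, gave 1 library per arm for each of Med26, Cdk8 and Pol II. All cells were fixed with 1% formaldehyde, and the bulk chromatin does not separate fewer occupied cells from less protein per cell. The 7 input libraries, the level of Cbx3 after knockdown and markers of the cell type were not analysed here, so signal that any antibody would give at a place cannot be told apart from signal of its own target. With 1 library per arm and antibody no difference between arms could be tested, and every interval below is a 95% interval that covers counting error only.

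Cbx3 is the heterochromatin protein HP1 gamma, which binds methylated histone H3 and is also found along transcribed genes. Mediator is the large complex that connects transcription factors with Pol II. Med26 is a subunit of the Mediator form that binds Pol II, and Cdk8 is the kinase of a module that binds Mediator in place of Pol II. Genes for the replication-dependent histones are transcribed by Pol II, lack introns and lie in clusters. Genes for tRNAs are transcribed by another enzyme, RNA polymerase III, from promoter elements inside the gene, the A box and the B box.

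No gene annotation of mm9 was used, so no site below is assigned to a gene. The gene content was read from the RefSeq table of build GRCm38.p6, as gene order without coordinates, between the olfactory receptor gene Olfr1368 and the pseudogene Vmn1r-ps92. That stretch was chosen with the data known, and whether its ends match those of the interval was not tested. It held 124 genes, among them 59 of the 105 tRNA genes that RefSeq places on chromosome 13 and 24 of its 55 histone genes, 1 of these a pseudogene. In order along the chromosome the stretch opened with a run of 9 tRNA genes, the ubiquitin ligase gene Trim27 and a run of 13 tRNA genes. A middle part with few tRNA genes followed, with the glutathione peroxidase genes Gpx5 and Gpx6, olfactory receptor genes and zinc finger genes such as Zkscan4 and Zkscan8. After it came 19 histone genes from H2bc13 to H4bc24, then 21 tRNA genes, then Zfp184, Pom121l2 and the protease gene Prss16 among short runs of tRNA genes. A second group of 5 histone genes, from H2ac12 to H2bc11, and 1 tRNA gene closed it.

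The first H1, H2A, H2B, H3 and H4 gene of that order with a promoter entry are shown by the 120 bases before the start, since these are the promoters a Pol II signal among histone genes would concern. Capitals mark each match to TATAAA or CCAAT on either strand (TTTATA and ATTGG on the other). The sequences are those of RefSeq, build GRCm38.p6, written 5′ to 3′ along the gene, with the gene's strand in brackets.
H1f5 (minus): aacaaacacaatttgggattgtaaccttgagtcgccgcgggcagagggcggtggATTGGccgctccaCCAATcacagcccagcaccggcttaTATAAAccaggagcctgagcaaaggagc
H2ac13 (plus): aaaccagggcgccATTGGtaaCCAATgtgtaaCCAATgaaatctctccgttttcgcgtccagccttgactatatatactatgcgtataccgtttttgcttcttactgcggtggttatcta
H2bc13 (minus): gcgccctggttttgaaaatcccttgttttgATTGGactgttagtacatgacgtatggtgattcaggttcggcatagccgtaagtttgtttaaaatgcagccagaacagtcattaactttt
H3c10 (plus): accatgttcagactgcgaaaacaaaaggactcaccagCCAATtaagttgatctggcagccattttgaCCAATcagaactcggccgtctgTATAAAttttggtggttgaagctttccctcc
H4c11 (plus): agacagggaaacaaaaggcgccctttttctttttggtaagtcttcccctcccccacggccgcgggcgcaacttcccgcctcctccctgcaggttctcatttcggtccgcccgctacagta
Of the 23 histone genes with a promoter entry, 11 (47.8%) held TATAAA on either strand within the 250 bases before the start, against 12.4% of all 32851 promoters of the table. CCAAT was present in 18 of them (78.3%), against 33.8% of all. These are not counts of independent promoters. The first bases shown for H2ac13 are the reverse complement of the first shown for H2bc13, so these genes share bases before their starts. A match there on either strand was counted for both genes. The H4c11 sequence held neither motif in the bases shown, which says only that these letters are not in that window.

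The tRNA genes had no entry among the promoters. The tRNA gene n-TItat14 of chromosome 13 lies within the hairpin of the microRNA Mir1983. Whether this gene belongs to the stretch described above was not tested. RefSeq (GRCm38.p6, minus strand) gives the hairpin as a sequence, shown here to display the internal promoter of a gene of this kind. The tRNA gene covers bases 19 to 112 of the 132, and capitals mark the match to GUUCGANNC, the core of the B box, at bases 92 to 100.
Mir1983: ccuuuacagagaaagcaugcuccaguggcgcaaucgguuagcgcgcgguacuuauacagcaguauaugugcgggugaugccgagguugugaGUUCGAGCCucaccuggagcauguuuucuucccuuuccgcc
The motif was searched on the strand shown and was present in 5 of 1005 mouse hairpins of the table (0.498%).

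Cdk8 stood apart from the other antibodies in this interval. The control siRNA Cdk8 library listed 269 of its 9960 windows here (2.70%), 59.5 times the density per Mb of its whole list. The Cbx3 siRNA Cdk8 library listed 277 of 10955 (2.53%), 55.7 times the density of its whole list. With only the windows at or above each library's median signal, these ratios were 103.8 and 98. In both arms a list spread over the whole genome was thus dense within 1.2 Mb. Pol II was denser than its genome-wide lists by smaller factors, 12.3 untreated (194 of 34855 windows), 7.52 under control siRNA (396 of 116001) and 7.69 under Cbx3 siRNA (353 of 101091). The Pol II windows lay unevenly: in the first and the second stretch of equal length of the interval the ratios were 1.89 and 22.6 untreated, 2.47 and 12.6 under control siRNA, and 2.35 and 13 under Cbx3 siRNA. Med26 listed 21 of 15546 windows under control siRNA, a density ratio of 2.97, and 0 of 2721 under Cbx3 siRNA. Cbx3 set 1 was sparser here than over the genome, with a ratio of 0.760 (319 of 923942 windows). For set 2 the ratio was 0.890 (99 of 244855), but 1.10 with windows at or above its median and 1.15 in the first stretch alone, so its direction depended on the setting.

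The strength and shape of the Cdk8 regions also differed from those of the rest of the genome. The 58 control regions had a median signal of 29.1, against 7.98 in the rest, with the highest at 81.3. The values of each list are whole multiples of a small step, and if 50 steps are 1 read, which the sources used here do not state, these medians equal 20.6 and 5.66 reads. Only 8.62% of the regions in the interval were a single window, against 63.98% elsewhere, and their median width was 225 bp. Of the 337 control Cdk8 regions with a signal of 20 or more in the whole genome, 37 (11.0%) lay here. The 54 regions under Cbx3 siRNA had a median of 35.5 and a highest value of 89.1.

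For a common set of places, the windows of the 7 Med26, Cdk8 and Pol II libraries were pooled and merged in the same way, which gave 101 sites. Cdk8 was listed without Pol II at 57 of them (56.4%) and Pol II without Cdk8 at 40 (39.6%). A further 3 sites held both because neighbouring windows were merged, and Med26 was alone at 1. The commonest pattern was Cdk8 in both arms and nothing else, at 48 sites. The next were Pol II in all 3 of its libraries, at 14 sites, Pol II in both siRNA arms, at 9, and Med26 with all 3 Pol II libraries, at 6. No site was listed in all 7 libraries. The 2 kinds of site differed in width, with a median of 300 bp (50 to 800) for Cdk8 without Pol II and 400 bp (50 to 2250) for Pol II without Cdk8.

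**Figure D1:**
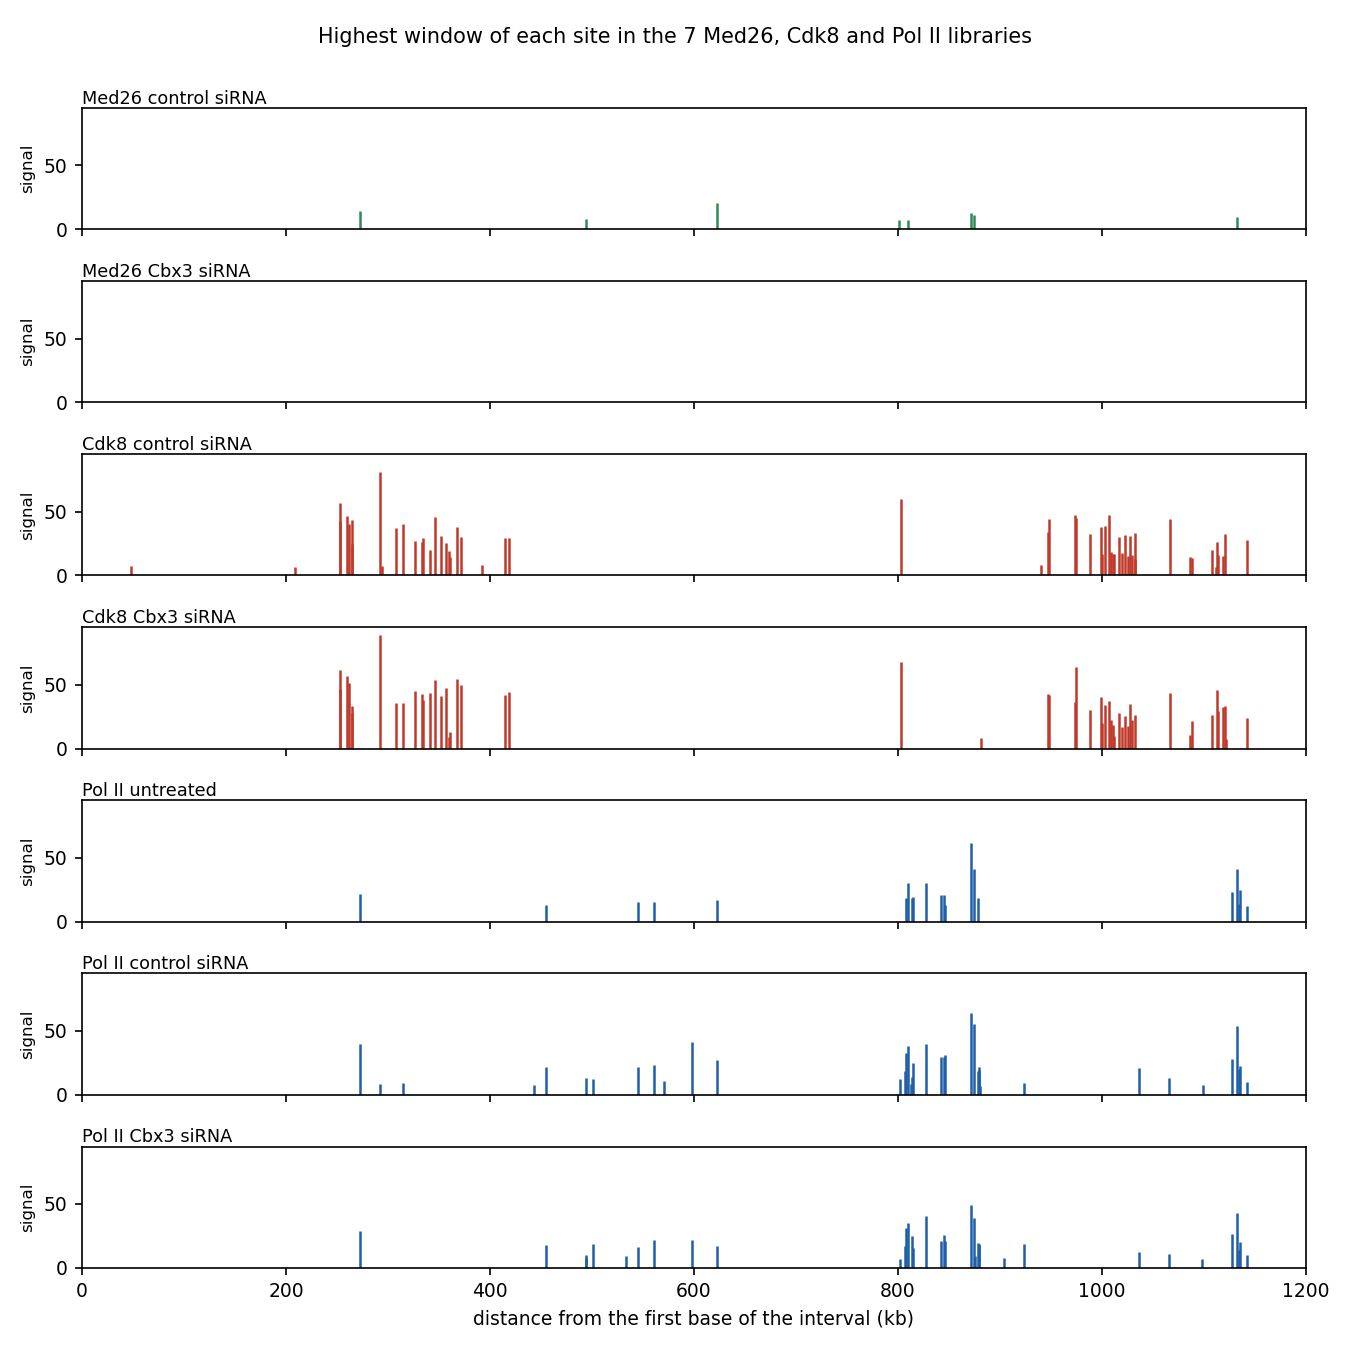
Signal of the highest window of each site (vertical axis, in the authors' unit) against distance from the first base of the interval (horizontal axis, kb) in each of the 7 Med26, Cdk8 and Pol II libraries, 1 bar per site. Most Cdk8 bars form 2 groups, on either side of a middle where many Pol II bars stand. The separation is not complete. Pol II bars also stand within both groups, and a control Cdk8 bar of 59.99 stands among the Pol II bars of the middle. The Med26 panel of the Cbx3 siRNA arm holds 0 bars.

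The 2 kinds of site came largely in runs along the chromosome. From the first base on, a run of 8 Cdk8 sites, 5 sites of differing kinds and a run of 14 Cdk8 sites came first. A run of 11 Pol II sites followed over 180 kb (chr13:21442601-21623050), and later a run of 17 Pol II sites within 73.5 kb (chr13:21807201-21880650). After 1 Cdk8 site and 2 Pol II sites came a run of 21 Cdk8 sites within 93 kb (chr13:21939901-22032900). The remainder alternated in runs of 2 to 7 sites and ended with 1 site of both kinds. In steps of 100 kb, the ninth held 18 of the 40 Pol II sites and 216 of the 396 control Pol II windows, while the second and the eighth held 0 sites of any kind. The RefSeq order above has its longest histone run, of 19 genes, directly before its longest tRNA run, of 21 genes, and the site order has its longest Pol II run shortly before its longest Cdk8 run. The 2 orders are set side by side as a description, and whether any site lies at any of these genes was not tested.

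**Figure D2:**
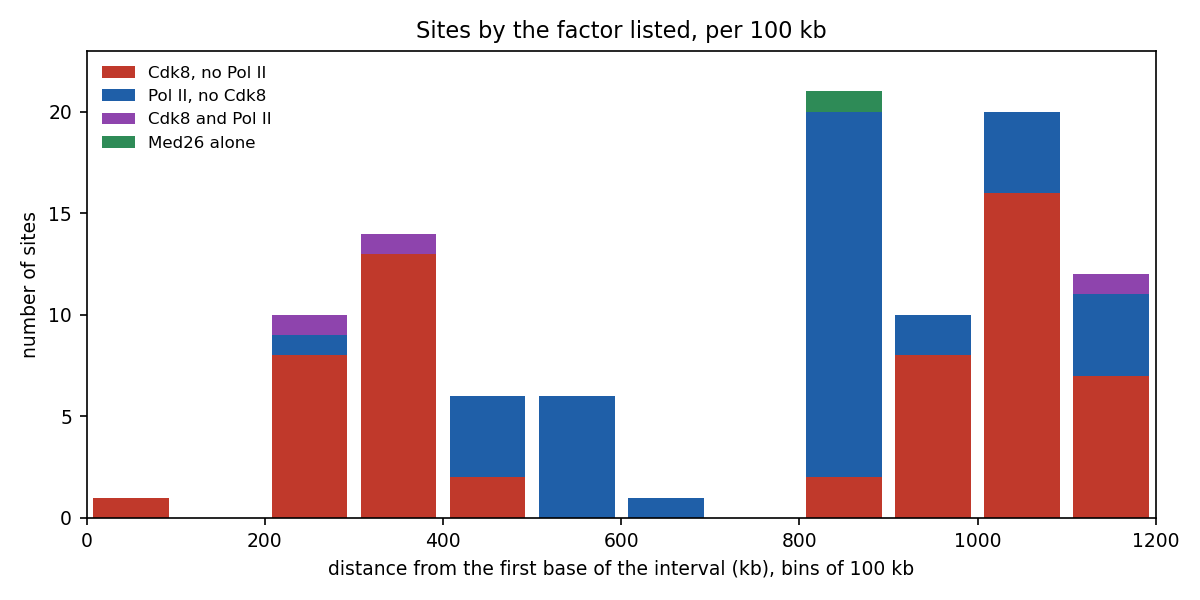
Number of sites (vertical axis) per 100 kb of the interval (horizontal axis, kb from its first base), coloured by whether Cdk8, Pol II, both or Med26 alone was listed in any library. The Cdk8 sites lie mostly between 200 and 400 kb and from 900 kb on, and 18 of the 40 Pol II sites lie in the bin that starts at 800 kb.

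Cdk8 regions did not overlap Pol II regions. Of the 58 control Cdk8 regions 0 overlapped a control Pol II region (Wilson interval up to 6.21%), against 21% of those in the rest of the genome. Among the 37 with a signal of 20 or more, again 0 did (up to 9.41%), while 36.3% of 300 such regions elsewhere did. Under Cbx3 siRNA 0 of 54 Cdk8 regions overlapped a Pol II region of that arm (up to 6.64%), against 23.5%. Both arms and both signal limits thus gave 0, and the rest of the genome gave a share above each upper bound. Read from the other side, 0 of 45 control Pol II regions overlapped Cdk8 (up to 7.87%), against 7.16% elsewhere, a share within that interval. Overlap with control Med26 was also 0 of 58 (up to 6.21%), but the share elsewhere was only 2.79%, so at this number of regions a difference was not detectable. The nearest Pol II region lay at a median distance of 18150 bp, and for 53 of the 58 it lay more than 1 kb away. The closest pair adjoined with 0 bp between them and did not overlap.

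The Cdk8 sites were also aligned on their highest control window, as a description of their shape. At the 48 sites with Cdk8 in both arms and no Pol II, the control Cdk8 list covered the place of the highest window, by construction, and 60.4% of sites 100 bp before it and 64.6% 100 bp after it. At 250 bp before the highest window the share was 0% in both arms. These sites were chosen for the absence of Pol II, so its absence at and next to the highest window follows from that choice. At no offset within 1000 bp was a Med26 window listed. Med26 was not itself used in the choice, but 7 of its 8 sites in the interval were Pol II sites. Its absence here therefore says little beyond that choice. At the 30 Pol II sites of both siRNA arms without Cdk8, the absence of Cdk8 was likewise fixed by the choice. Control Med26 covered 10% of these Pol II sites at the highest window.

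**Figure D3:**
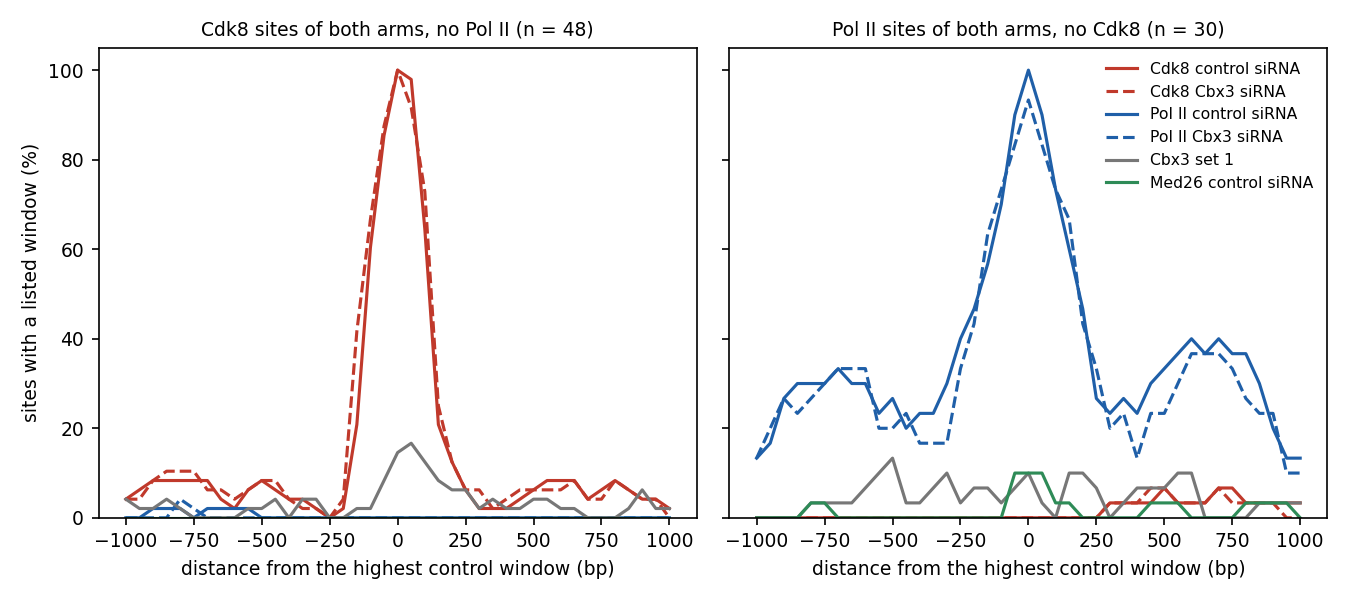
Percent of sites with a listed window (vertical axis) at each distance in bp from the highest control window (horizontal axis), for 48 Cdk8 sites (left, aligned on control Cdk8) and 30 Pol II sites (right, aligned on control Pol II), 1 line per library. The Cdk8 lines fall to 0% at 250 bp before the highest window, while the Pol II lines have shoulders at about 600 bp on either side.

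The strongest Cdk8 site, chr13:21291951-21292550, was also unusual in its company. Cdk8 was listed over 350 bp there in both arms, with a signal of 81.3 under control siRNA and 89.1 under Cbx3 siRNA. Control Pol II was listed over 100 bp of the site with a signal of 8.69, close to the lowest value that list holds (6.01), and the other 2 Pol II libraries listed nothing. Cbx3 was listed there in both sets, at 52.0 in set 1 and 14.7 in set 2, values that are not on a common scale. The other 9 of the 10 strongest control Cdk8 sites had no Pol II and no Med26.

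Those 9 had control signals from 43.9 to 59.99 and kept a signal of 36.5 or more after Cbx3 siRNA. At chr13:21802351-21803150, a site that lies among Pol II sites, the signal was 59.99 under control siRNA and 67.6 under Cbx3 siRNA, while the listed length was 650 and 500 bp. At chr13:21252551-21252900 the signals were 56.7 and 61.5. At chr13:22006601-22006950 they were 47.5 and 37.6, and at chr13:21973701-21974150 they were 47.4 and 36.5. These 4 sites show that strong sites lay on either side of equality between the arms. The site chr13:21974651-21974900, the next one along the chromosome, went the other way, from 44.8 to 63.8. The signals were 46.9 and 56.9 at chr13:21259401-21260150, 45.5 and 53.8 at chr13:21345951-21346350, 44.6 and 43.7 at chr13:22066751-22067100, and 43.9 and 41.6 at chr13:21947801-21948100. Over the 10 strongest sites, 6 were higher and 4 lower in the Cbx3 siRNA library.

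Most Cdk8 sites were narrow and evenly shaped. Of the 50 Cdk8 sites without Pol II that held 2 windows or more, 40 were 200 to 400 bp wide. Neighbouring sites of these 50 lay a median of 3200 bp apart, with the smallest gap at 250 bp and 39 of 49 gaps under 10 kb. The place of the signal hardly moved between the arms. Of 51 Cdk8 sites listed in both, the highest window was the same window at 29, within 50 bp at 48 and within 100 bp at all 51. At Pol II sites, which were wider, it lay within 50 bp at 16 of 31, and the largest shift was 900 bp.

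After Cbx3 siRNA the Cdk8 regions of the interval were, over all strengths, listed again more often than those elsewhere. Among strong regions the 2 shares were close. Of 58 control Cdk8 regions, 51 were also listed under Cbx3 siRNA (87.9%, 77.1 to 94.0), against 10.6% in the rest of the genome. Those 51 were 8.06% of all control Cdk8 regions kept in the genome. The comparison of all regions mixes strong with weak ones, and the regions elsewhere were weaker. With the signal at 20 or more, a limit chosen after the values were seen, 37 of 37 were kept here and 280 of 300 elsewhere (93.3%). The 7 regions that were lost had control signals of 6.29 to 12.7, and 5 of them were single windows, while the weakest kept region stood at 13.4. The 2 regions listed under Cbx3 siRNA alone had signals of 7.28 and 8.04.

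The Cdk8 signal differed little between the arms. It leaned towards the Cbx3 siRNA library, but the share of regions that were higher did not stand apart from that of the genome. Listed windows numbered 277 against 269, a ratio of 1.03, and the ratio was 1.10 in the rest of the genome. Over the 226 windows listed in both arms, log2 signal under Cbx3 siRNA less that under control had a median of 0.21 (0.13 to 0.27), with 148 windows higher and 78 lower, and it was 0.09 elsewhere. Neighbouring windows share reads, so the order-statistic interval is too narrow. Over regions, 33 of 51 were higher after Cbx3 siRNA (64.7%, 51.0 to 76.4), against 54.6% elsewhere, a share within that interval. The median over regions was 0.19 with an SD of 0.45, against a median of 0.05 and an SD of 0.49 elsewhere. Of these 51, 3 differed 2-fold or more (5.88%), 2 higher and 1 lower, against 4.35% of regions elsewhere. Listed length was greater at 26, smaller at 15 and equal at 10 of them.

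The lean was uneven along the chromosome. From 200 to 500 kb of the interval, 16 of 20 Cdk8 sites without Pol II listed in both arms were higher after Cbx3 siRNA, with a median log2 difference of 0.36 (0.14 to 0.60). From 900 to 1200 kb, 15 of 27 were higher and 12 lower, with a median of 0.09 (-0.12 to 0.34). Over these same sites the median signal was 29.9 under control siRNA and 43.9 under Cbx3 siRNA in the first block, and 30.0 and 29.1 in the second. Within the second block the 100 kb from 1000 kb held 6 higher and 9 lower sites and the last 100 kb held 5 higher and 0 lower. The limits of the blocks were chosen after the values were seen, and the difference between them was not tested.

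**Figure D4:**
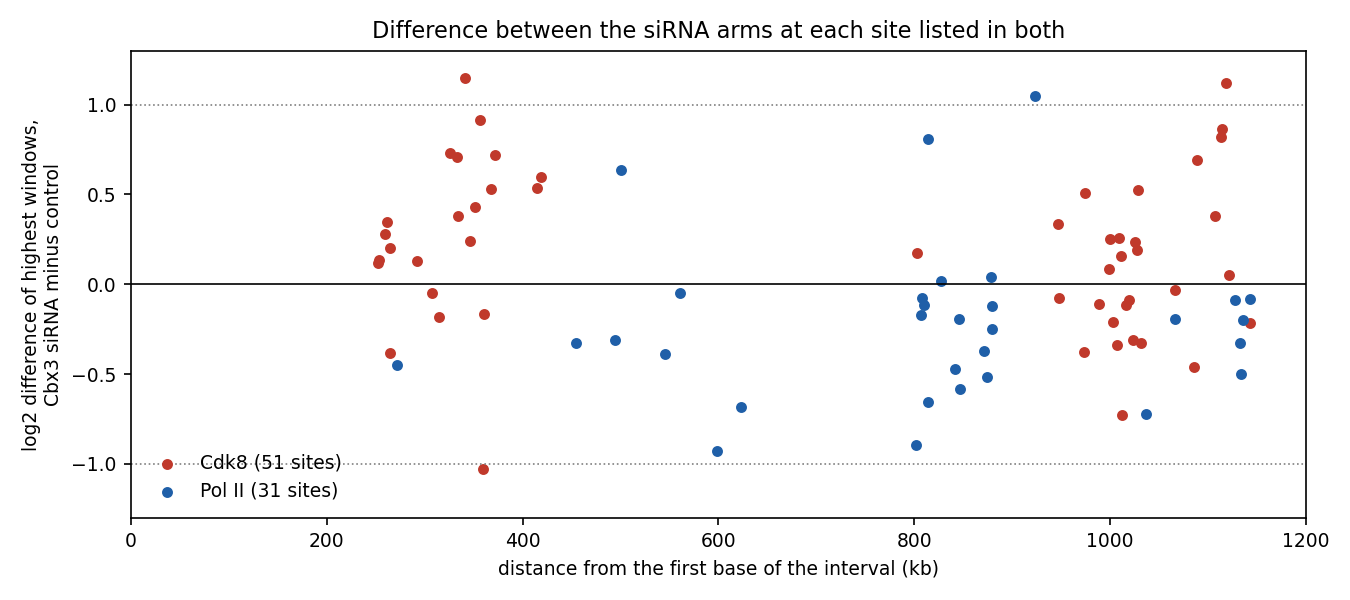
Difference of the log2 highest signal, Cbx3 siRNA minus control (vertical axis), for each Cdk8 site (51, red) and Pol II site (31, blue) listed in both arms, against distance from the first base of the interval (horizontal axis, kb). Dotted lines mark a 2-fold difference, and 33 Cdk8 points lie above 0 while 26 Pol II points lie below it.

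Single Cdk8 sites went both ways. The site chr13:21340901-21341200 was listed over 150 bp with a signal of 19.7 under control siRNA and over 300 bp with 43.7 under Cbx3 siRNA, a log2 difference of 1.15. At chr13:22118251-22118550 the values were 100 bp and 14.9 against 300 bp and 32.5 (log2 difference 1.12). These were the 2 sites past 2-fold in the upward direction. The site chr13:22028901-22029350 was listed over 200 and 400 bp, with signals of 15.8 and 22.8. At chr13:21325801-21326100 the signal was 27.4 and 45.4, and at chr13:21367701-21368000 it was 38.0 and 54.8, each over 200 and 300 bp. In the other direction, chr13:22032751-22032900 was listed over 150 bp with 12.7 under control siRNA and not at all under Cbx3 siRNA. The one site past 2-fold downward, chr13:21359451-21359700, held 250 bp and 19.2 against 150 bp and 9.42 (log2 difference -1.03). At chr13:22012001-22012200 listed length was 200 and 50 bp with signals of 16.6 and 10.01, and at chr13:22022951-22023200 it was 250 and 100 bp with 32 and 25.8. The sites with the largest shifts in listed length thus had control signals from 12.7 to 59.99.

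**Figure D5:**
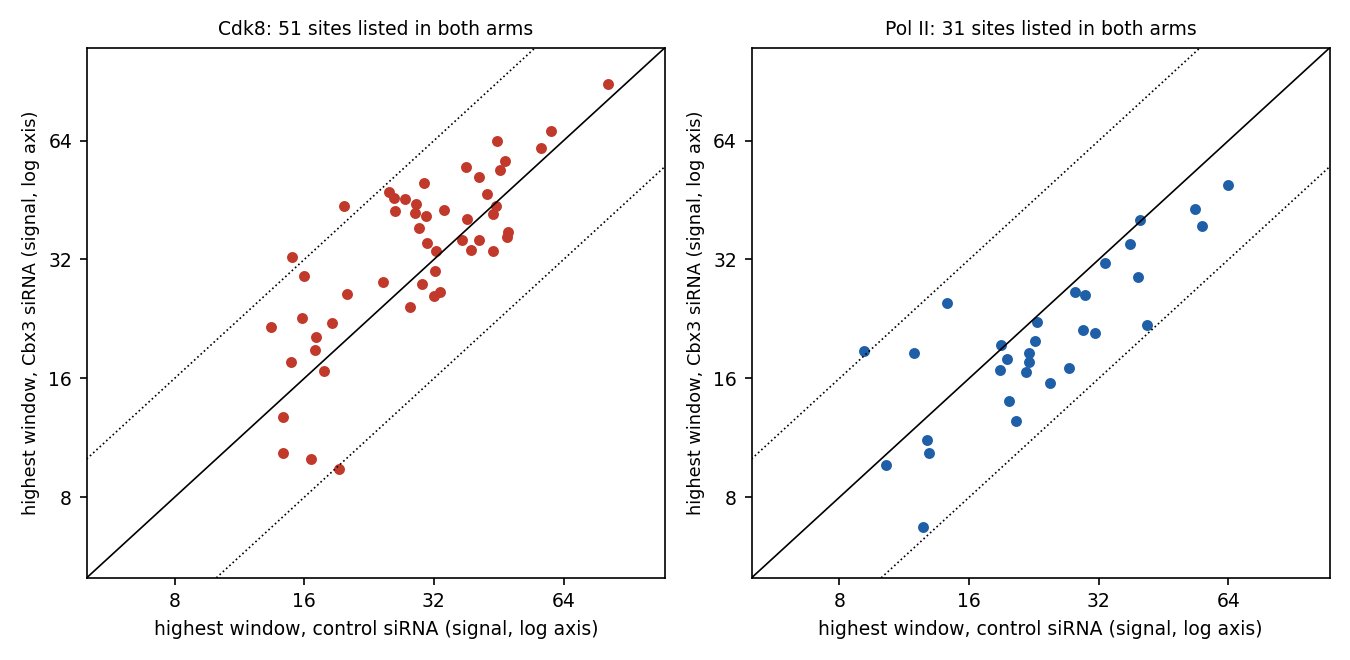
Highest signal of each site under Cbx3 siRNA (vertical log axis) against control siRNA (horizontal log axis), for 51 Cdk8 sites (left) and 31 Pol II sites (right), with the line of equality solid and 2-fold differences dotted. Most Cdk8 points lie on or above the solid line (33 of 51) and most Pol II points below it (26 of 31).

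Across sites, the order of strength was similar in both arms. Pearson's r of the log2 highest signal was 0.78 over 51 Cdk8 sites and 0.80 over 31 Pol II sites. These are descriptions across sites of the same 2 libraries, which share base composition and the authors' threshold, and they have no p.

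Pol II was listed mainly in the part of the interval between the 2 groups of Cdk8 sites. The last 100 kb, within the second group, also held 101 of the 396 control Pol II windows. All 28 untreated Pol II regions overlapped a control siRNA region (100%, 87.9 to 100), against 94.8% elsewhere, and 26 of 45 control regions overlapped an untreated one (57.8%, 43.3 to 71.0), against 44.2%. The untreated list starts at a higher minimum signal, 9.02 against 6.01. Of the 40 Pol II sites without Cdk8, 20 were listed in all 3 Pol II libraries.

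The longest Pol II site in untreated cells was chr13:21870851-21872750. Its listed length was 1250 bp untreated, 1800 bp under control siRNA and 1750 bp under Cbx3 siRNA, and its signals were 61.3, 63.8 and 49.3. It was the strongest Pol II site of the interval in each library. The next site along the chromosome, chr13:21874151-21875400, held signals of 41.4, 55.6 and 38.9 in the same order of libraries. At chr13:21808651-21810850 they were 29.9, 37.8 and 34.9, over 1200, 1750 and 1500 bp. At chr13:22131751-22133350, near the end of the interval, they were 41.2, 53.6 and 42.8, over 1050, 1600 and 1400 bp. The site chr13:21844851-21846100 held 21.2, 29.7 and 26, with the largest fall in listed length of all Pol II sites, 1250 bp under control and 800 bp under Cbx3 siRNA. In all 5 the value in the authors' unit was highest in the control siRNA library, and the Cbx3 siRNA library was lower than it. The step of the values was 0.0211 untreated and 0.022 in each siRNA library, so untreated values are not on the scale of the others. In reads, inferred from the step as for Cdk8 above, the strongest site had 58.16 untreated and 57.96 under control siRNA. The order of these 2 libraries at that site thus depended on the unit.

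Under Cbx3 siRNA Pol II signal at the interval was lower than under control siRNA, by about as much as elsewhere in the genome. Of 45 control Pol II regions 36 were also listed under Cbx3 siRNA (80%, 66.2 to 89.1), against 67.9% elsewhere, a share within that interval. Listed windows numbered 353 against 396, a ratio of 0.891, and 0.871 in the rest. Over 297 shared windows the median log2 difference was -0.32 (-0.36 to -0.26), with 230 lower and 67 higher, and it was -0.29 in the rest. Over regions 26 of 32 were lower (81.3%, 64.7 to 91.1), against 76.8% elsewhere. Of these 32, 1 differed 2-fold or more (3.13%), against 4.19% elsewhere. Listed length was smaller at 21 of 31 sites, greater at 7 and equal at 3.

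Further sites named for their shift in listed length went in both directions. At chr13:21271351-21273000, a Pol II site between Cdk8 sites, the listed length was 400 bp untreated, 1200 bp under control and 800 bp under Cbx3 siRNA, with signals of 21.7, 39.5 and 28.9. At chr13:21454601-21455000 it was 50, 400 and 200 bp, with 12.9, 22.0 and 17.6. Against the general direction, chr13:21500301-21500750 was listed over 150 bp with 11.9 under control and over 450 bp with 18.6 under Cbx3 siRNA, and chr13:21813801-21814100 over 150 bp with 14.2 and over 300 bp with 24.8. The one Pol II site past 2-fold, chr13:21923301-21923550, was listed over 100 bp with 9.11 under control and over 250 bp with 18.8 under Cbx3 siRNA (log2 difference 1.05). At chr13:22036601-22037300 length and signal went apart, with 150 bp and 20.6 under control against 350 bp and 12.5. The site chr13:21532951-21533100 was listed under Cbx3 siRNA alone, over 150 bp with 9.26. A sixth site, chr13:21807201-21807550, gained as much length as the smallest of these gains, from 200 to 350 bp, and its signal was 18.9 under control and 16.8 under Cbx3 siRNA.

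Med26 had few regions here, and most of them were listed with Pol II, as elsewhere. Of its 8 control regions 7 overlapped control Pol II (87.5%, 52.9 to 97.8), against 74.8% elsewhere, a share within that interval. At sites, 6 of the 8 held Pol II in all 3 libraries and 0 held Cdk8. Of the 45 control Pol II regions 7 held Med26 (15.6%, 7.75 to 28.8), against 25.5% elsewhere, which is also within the interval. The highest Med26 signal, 20.6 over 150 bp, was at chr13:21622801-21623050, a short Pol II site with signals of 17.2 untreated, 27.3 under control and 17.0 under Cbx3 siRNA. At chr13:21271351-21273000 Med26 was listed over 250 bp with 14.6, and at the strongest Pol II site, chr13:21870851-21872750, over 200 bp with 12.6. The values were 9.82 over 100 bp at chr13:22131751-22133350 and 7.76 over 150 bp at chr13:21494301-21494800.

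After Cbx3 siRNA no Med26 window of the interval was listed, so 0 of 8 control regions were kept (up to 32.4%), against 8.63% elsewhere. That share lies within the interval, and the listed Med26 windows of the rest of the genome numbered 0.175 times those under control. The control values of the 8 ran from 7.33 to 20.6, and the lowest value the Med26 lists hold is 6.01. A window that is not listed can still hold signal below the authors' minimum, and for Med26 each arm has an input library of its own by the labels, which was not used here.

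Cbx3 regions were many and mostly away from these sites. Set 1 had 155 regions with a median width of 100 bp and a median signal of 37.0, and 29 of them (18.7%) lay at one of the 101 sites. Set 2 had 50 regions with a median width of 75 bp and a median signal of 14.5, and 6 of them (12%) lay at a site. The step of the values differs between the sets, 0.0797 in set 1 and 0.0436 in set 2, so their signals are not on a common scale. If 50 steps are 1 read, the median signals equal 9.28 reads in set 1 and 6.66 in set 2. The 2 sets shared few regions: 6 of 155 regions of set 1 overlapped set 2 (3.87%, 1.79 to 8.19), against 3.29% elsewhere, and 5 of 50 of set 2 overlapped set 1 (10%, 4.35 to 21.4), against 11.1%. The low overlap of the sets here was close to that of their whole lists.

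Set 1 overlapped more Cdk8 and Pol II regions than set 2 did, and it was the longer list, with 155 regions here against 50. Of 58 control Cdk8 regions, 15 overlapped set 1 (25.9%, 16.3 to 38.4), against 13.8% elsewhere. Only 1 overlapped set 2 (1.72%), against 6.02%, and 0 overlapped both (up to 6.21%), against 4.82%. The Cdk8 regions here were also wider, with a median of 225 bp against 50 bp elsewhere, and the part of width in these shares was not tested. Of 45 control Pol II regions, 10 overlapped set 1 (22.2%, 12.5 to 36.3), against 39.8% elsewhere, 5 overlapped set 2 (11.1%, 4.84 to 23.5), against 11.8%, and 1 overlapped both sets (2.22%), against 5.54%. Over sites without the other factor, set 1 was at 15 of 57 Cdk8 sites (26.3%, 16.6 to 39.0) and 11 of 40 Pol II sites (27.5%, 16.1 to 42.8). Set 2 was at 1 of 57 (1.75%, 0.310 to 9.29) and 4 of 40 (10%, 3.96 to 23.1). In each set the intervals of the 2 shares overlapped. At the aligned Cdk8 sites set 1 was listed at 16.7% of them 50 bp past the highest window, its peak within 1000 bp.

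Cdk8 sites with a set 1 region were among the stronger ones. The 15 sites had control Cdk8 signals with a lowest of 20.1, a median of 40.6 and a highest of 59.99, and the 40 control sites without one had 6.29, 19.5 and 56.7. They were also wider, with a median of 350 against 250 bp, and the part of width and signal in this was not tested. All 15 were listed in both arms, with a median log2 difference of 0.17 between them (9 higher, 6 lower), against 0.24 for the 33 of the others that were (23 higher, 10 lower). Of the Pol II sites, 11 with set 1 had a median control signal of 27.3 and 24 without it 19.7, with median log2 differences of -0.32 and -0.20. Set 2 was at too few sites for such a comparison: its 1 Cdk8 site had a control signal of 43.8 and a log2 difference of -0.38, and its 4 Pol II sites had a median control signal of 23.9, against 22 for the 31 without it.

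The Cbx3 regions of both sets were mostly not at Cdk8 or Pol II sites. Ranked by the length of the shorter overlapping region, the first was chr13:21303401-21303550 in set 1, 150 bp with a signal of 37.0. It overlapped a 500 bp region of set 2 with 28.4. The set 1 region chr13:21302851-21302950, with 38.9, overlapped that same set 2 region. At chr13:21992651-21993100 set 1 was listed over 450 bp with 58.6, and set 2 over 100 bp with 20.8. At chr13:21334951-21335150 the values were 200 bp with 40.4 and 50 bp with 12.4. The signals of the sets are on different scales, as given above. None of these 4 lay at one of the 101 sites, and chr13:21292351-21292550 lay at the strongest Cdk8 site described above.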

How the data were processed

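The data were 9 deposited lists of 50 bp windows with a signal per window, in mm9 coordinates. Bowtie and mm9 are named per the submitters' processing notes; not given in the sources used here are the aligner's version, how windows were tested, at which threshold, and whether input was subtracted. The signal values were used as deposited by the authors; they are whole multiples of 1 step per library (100% within 0.05 of a step), and the step was equal within each siRNA pair, which does not show equal depth. Total read depth is unknown. Each library's list holds only windows above a minimum.

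Merging joined windows 200 bp or less apart, and overlap meant at least 1 bp. Shares have 95% Wilson intervals and medians order-statistic intervals. No test was run between arms, each with 1 library per antibody. The tools were pandas 2.3.3 with numpy 2.4.6 and scipy 1.17.1 in Python 3.11.15, with matplotlib 3.10.9 for figures, and the merging and overlap steps were tested on simulated data. The members and lists were chosen with earlier results of these data known. Named are the 10 sites with the highest control Cdk8 signal, the 5 longest untreated Pol II sites and any site in all 7 libraries. Also named are the 5 largest falls and 5 largest rises in listed length per siRNA pair. Ties were broken by the difference of the highest signal between arms. The last named are the 5 longest Cbx3 regions of both sets, by the length of the shorter overlapping region. Alternatives changed the overlap, the threshold, the merging, the interval and the Cbx3 set.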

Additional observations from a re-analysis of the deposited data

Results flagged for a closer look

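The 2 antibodies listed in both siRNA arms of the interval moved in opposite directions. In windows listed in both arms, log2 signal under Cbx3 siRNA less that under control had a median of 0.21 for Cdk8 and -0.32 for Pol II. The difference between them was not tested, because each arm has 1 library per antibody. In the rest of the genome the medians were 0.09 and -0.29.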

How the results depend on the processing

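Of 64 alternatives over 21 results, 50 gave a value within the interval of the one reported (for ratios, within 1.5 times of it), 12 gave one outside and 2 reversed a direction; where a cause is not named, it was not tested. The kept share of Cdk8 regions was 96.2% with windows at or above the control median. For control regions of signal 20 or more it was 100%, against 93.3% elsewhere. That of Pol II was 95.8% at 20 or more, against 98.97% elsewhere. The limit of 20 was chosen after seeing the data. Leaving out 1 Cbx3 set gave shares of control Cdk8 regions with Cbx3 from 1.72% to 25.9%. The reversals were those of Cbx3 set 2, whose density ratio went from 0.890 to 1.10 with windows at or above its median and to 1.15 in the first stretch of equal length. The density ratio of Cdk8 was 103.8 (control) and 98 (Cbx3 siRNA) with windows at or above each library's median. In the first and the second stretch of equal length of the interval, the Pol II ratios were 1.89 and 22.6 untreated, 2.47 and 12.6 under control, and 2.35 and 13 under Cbx3 siRNA. No paired analysis was possible because there was 1 library for each antibody and arm. The precision of each value is limited by the number of regions and by unknown depth, and no interval covers differences between cultures.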
